A study of Homo sapiens with 6 samples.

Results

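The enzymes of de novo purine synthesis were followed here as 10 genes: PRPS2, PPAT, GART, PFAS, PAICS, ADSL, ATIC, IMPDH1, IMPDH2 and GMPS. The members were chosen by gene symbol, all 10 were found among the 17335 genes of the deposited table, and all 10 were among the 12258 genes tested, each with at least 5.63 FPKM in every library. RNA came from A549, an established human cell line of alveolar basal epithelial origin, grown in medium with serum. One group was treated with a compound labelled BRQ and the other with its solvent, DMSO, with 3 libraries in each group. According to its title the series is about inhibition of DHODH, an enzyme of pyrimidine synthesis. BRQ is read as the inhibitor meant, a reading that no label spells out, and neither dose nor exposure time is stated. Levels are given as FPKM, fragments scaled to gene length and to the reads counted in the library, so that levels of different genes can be set side by side. The labels do not state whether each library had its own culture, and the spread behind the p-values may therefore be technical. In bulk RNA, fewer cells of a type and less RNA per cell cannot be told apart.

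De novo purine synthesis builds the purine ring on a ribose phosphate. PRPP synthetases (PRPS1 and PRPS2) make the activated sugar, PPAT commits it to the route, and GART, PFAS, PAICS, ADSL and ATIC complete the ring as inosine monophosphate (IMP). From IMP one branch leads through IMPDH1 or IMPDH2 and GMPS to GMP, and the other through adenylosuccinate synthetases and ADSL to AMP. Proliferating cells draw on this route for nucleic acids and for ATP and GTP, and PRPP is also used in pyrimidine synthesis.

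The libraries carried the line's features. The gene CDKN2A, which A549 cells have lost, averaged 0.00425 FPKM in BRQ and 0.0102 FPKM in DMSO. All 5 epithelial markers listed averaged at least 0.5 FPKM, with sums of 1024 to 1104 FPKM in BRQ libraries and 651 to 664 FPKM in DMSO libraries, whereas of 9 alveolar type 2 markers only ABCA3, LAMP3 and NAPSA did, and the surfactant genes SFTPB and SFTPC averaged at most 0.0425 FPKM. Of the fibroblast, leukocyte and endothelial markers in the table, 1 of 3, 1 of 3 and 0 of 3 averaged at least 0.5 FPKM. The fibroblast markers summed to 4.25 to 4.55 FPKM in BRQ libraries and 1.22 to 1.73 FPKM in DMSO libraries, most of it COL1A1 (mean 3.90 FPKM in BRQ and 1.42 FPKM in DMSO), and the endothelial markers summed to at most 0.188 FPKM. CD68, listed for leukocytes, averaged 146 FPKM in BRQ and 48.7 FPKM in DMSO while the pan-leukocyte gene PTPRC averaged at most 0.00556 FPKM, and the part of these markers in the results was not tested. The FPKM values were scaled by 32195354 to 34908896 reads per library in BRQ and 27789226 to 29644463 reads in DMSO, and each member rested on 831 to 7919 reads in a library. On the second principal component (1.69% of the variance) DMSO replicate 2 lay apart from the other DMSO libraries.

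Most of the ring-building and GMP enzymes were lower in BRQ, the PRPP synthetase PRPS2 was higher, and the committing enzyme PPAT and the bifunctional PAICS were close to their DMSO levels. GART, PFAS, ADSL, ATIC, IMPDH2 and GMPS fell, PRPS2 rose, and PPAT, PAICS and IMPDH1 did not pass the test (limma on log2(FPKM + 0.5), Benjamini-Hochberg adjusted p under 0.05). In this comparison 79.7% of all tested genes were called, 44.3% higher and 35.4% lower. The balance turned under other scalings, with 4518 genes higher and 5184 lower under TMM factors and 4713 higher and 4959 lower under quantile normalization. The members' total of 7 of 10 called is near the 79.7% of all tested genes. By direction, 6 of 10 members were called lower, against 35.4%, and 1 of 10 higher, against 44.3%. The median log2 fold change, BRQ over DMSO, was -0.24 over the 10 members and 0.07 over all tested genes. The BRQ values lay wholly apart from the DMSO values for 8 of 10 members, against 81.4% of all tested genes. They lay above for 2 members, against 44.9% of all tested genes, and below for 6, against 36.5%.

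**Figure D1:**
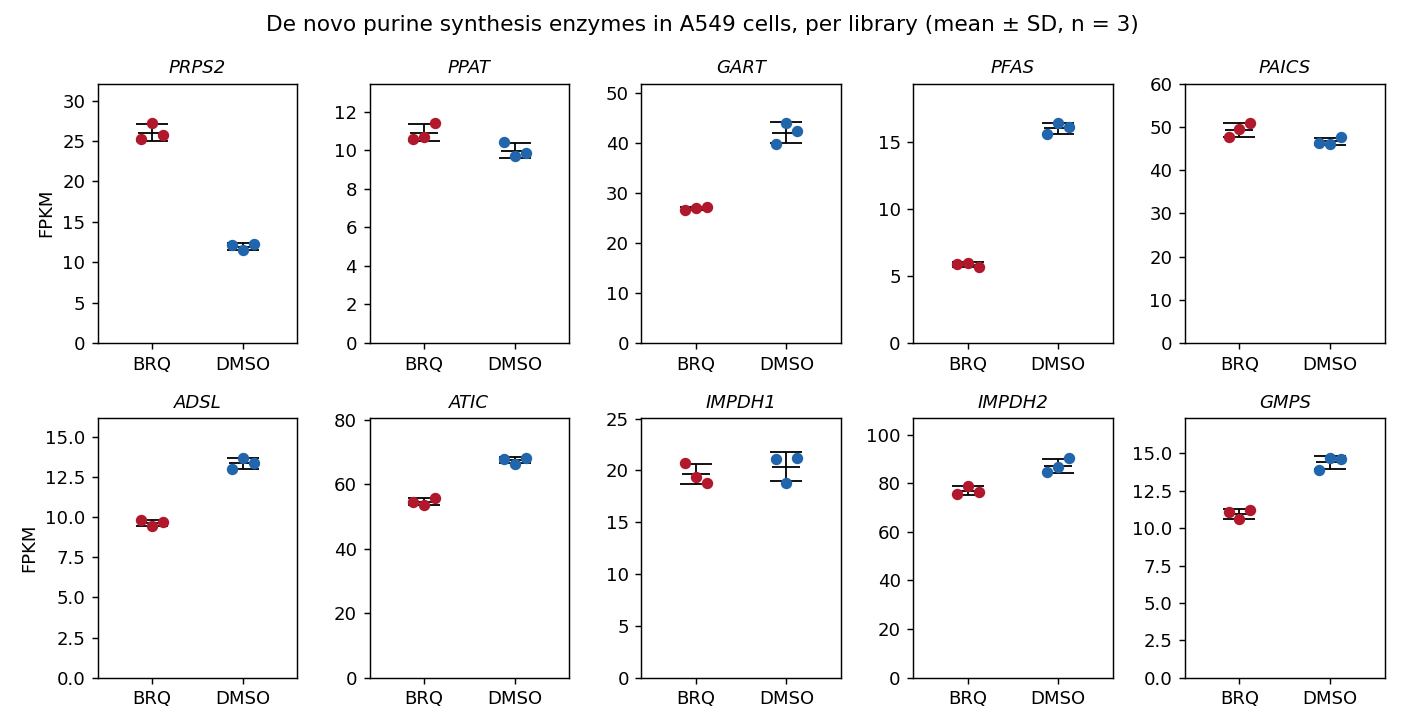
FPKM (y axis, from 0) of each of the 10 members in BRQ and DMSO libraries; each point is 1 library and the black bars are the mean ± SD (n = 3). The groups stand apart for 8 members, with PRPS2 and PPAT higher in BRQ and 6 members lower, and they overlap for PAICS and IMPDH1.

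**Figure D2:**
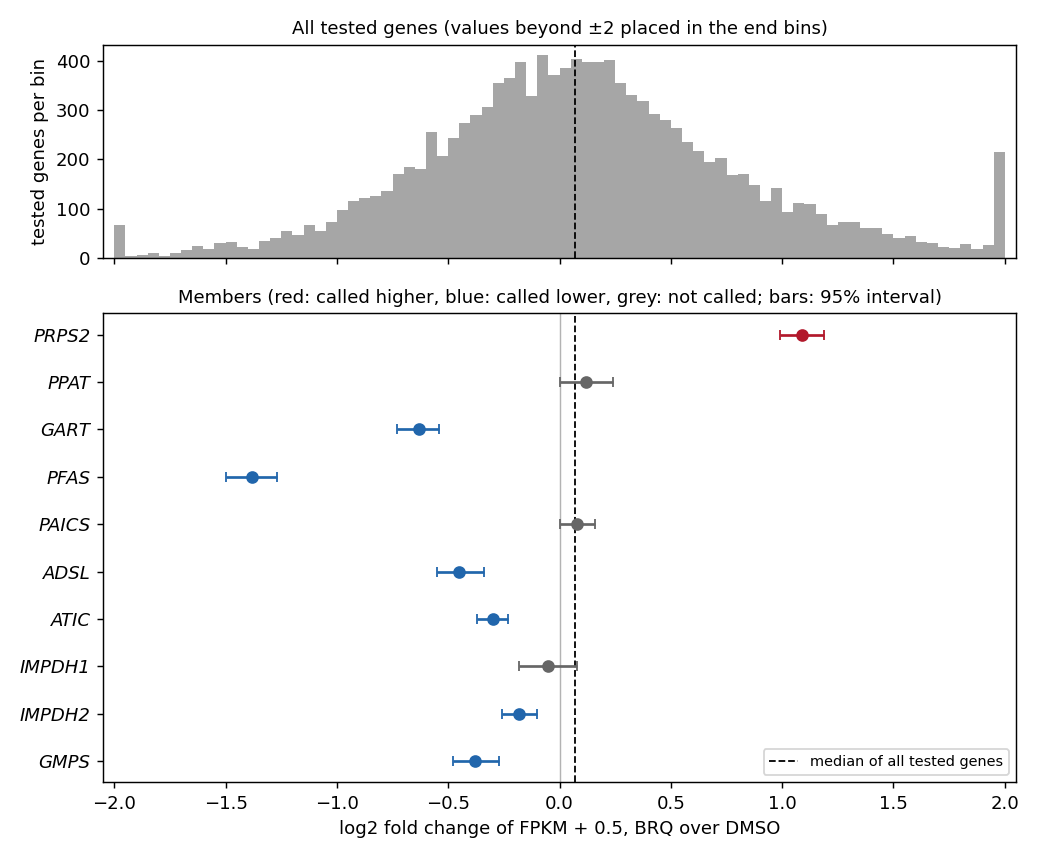
Upper panel, number of tested genes per bin of log2 fold change of FPKM + 0.5, BRQ over DMSO; lower panel, the same quantity for the 10 members with 95% intervals. PRPS2 (1.09) and PFAS (-1.38) lie farthest from the median of all tested genes (0.07, dashed), while PPAT (0.12) and PAICS (0.08) lie beside it.

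PRPS2, on chromosome X (12791412 to 12824222, plus strand, GRCh38), makes PRPP from ribose 5-phosphate and ATP. Its level was 25.2, 27.2 and 25.7 FPKM in the BRQ libraries, against 12.1, 11.5 and 12.2 FPKM in the DMSO libraries. All BRQ libraries lay above all DMSO libraries, and the mean was 2.18 times the DMSO mean (log2 fold change 1.09, SE 0.05, limma adjusted p = 9.26e-09). It was the member with the largest rise and lay at percentile 91.3 of the log2 fold changes of all tested genes. Its paralogue PRPS1, which catalyses the same reaction, also rose, with 49.6, 49.6 and 48.8 FPKM in BRQ against 29.7, 28.5 and 28.2 FPKM in DMSO (log2 fold change 0.77, SE 0.03, limma adjusted p = 1.52e-08). PRPS1 remained the more abundant of the pair in every library. PRPS2 stood at 0.51, 0.55 and 0.53 of the PRPS1 level in BRQ libraries, against 0.41, 0.40 and 0.43 in DMSO libraries. On the log2 scale this ratio was 0.33 higher in BRQ, which gave p = 0.10 in an exact two-sided permutation test, the smallest value that 3 against 3 libraries allow. PRPS1 has 2 named pseudogenes in GENCODE release 29, so its level and this ratio are uncertain where reads match several copies.

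PPAT, the amidotransferase that carries out the first committed step, and PAICS, which carboxylates the ring intermediate and then joins it to aspartate, are neighbours on chromosome 4. PPAT runs from 56393362 to 56435615 on the minus strand, and the RefSeq table places PAICS from 56410507 to 56464578 on the plus strand, with 1 of its 3 listed starts at 56435752. From that start the genes are transcribed away from each other, with starts 137 bases apart. The stretch between them shows what both genes have upstream, written 5′ to 3′ on the plus strand (RefSeq, GRCh38.p14, chr4:56435616-56435751), with PPAT to its left and PAICS to its right:
PPAT and PAICS: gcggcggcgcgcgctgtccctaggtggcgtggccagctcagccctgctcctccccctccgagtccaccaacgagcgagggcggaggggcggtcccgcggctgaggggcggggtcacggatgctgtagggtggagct
It holds 136 bases, 75.0% of them G or C, with 15 CG dinucleotides, and none of the motifs searched on both strands, so no letter is in capitals. Those were the E-box CACGTG, the box CCAAT and the core of the NRF1 site, GCATGC.

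PPAT had 10.6, 10.7 and 11.4 FPKM in BRQ, against 10.4, 9.70 and 9.83 FPKM in DMSO. The BRQ libraries lay above the DMSO libraries by a small margin, and the difference did not pass the test (log2 fold change 0.12, 95% interval 0.00 to 0.24, limma adjusted p = 0.0600; 0.0463 to 0.973 over the alternatives). The 1 alternative that called it left out DMSO replicate 1. PAICS, at 47.6, 49.5 and 50.9 FPKM in BRQ and 46.2, 46.1 and 47.7 FPKM in DMSO, overlapped between the groups (log2 fold change 0.08, SE 0.04, limma adjusted p = 0.0675; 0.0373 to 0.862 over the alternatives). It was called higher by limma-voom and without BRQ replicate 1, while under TMM factors and quantile normalization its log2 fold change was -0.04 and -0.01. PAICS was 4.50, 4.64 and 4.48 times as abundant as PPAT in BRQ libraries and 4.45, 4.75 and 4.86 times in DMSO libraries. The pair's log2 ratio differed by -0.04 between BRQ and DMSO (exact two-sided permutation p = 0.40), a difference smaller than the SD of 0.06 among the DMSO libraries. PAICS has 7 named pseudogenes and PPAT 2 in GENCODE release 29, and reads that match several copies make these levels uncertain. By their RefSeq spans the genes also overlap on opposite strands, from 56410507 to 56435615, though not in GENCODE release 29. The annotation and strand setting of the counting are not known here, and the part of this overlap in the levels and their ratio was not tested.

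GART joins the enzymes of the second, the third and the fifth ring-building reaction in 1 protein. The gene lies on chromosome 21 (33503931 to 33542893, minus strand) and its nearest listed start (33542892) is 146 bases from that of SON, a gene for a nuclear speckle protein on the plus strand. Of the starts facing away from each other within 1 kb, these are the other pair with both genes in the deposited table. The stretch between these starts (chr21:33542893-33543037, RefSeq, GRCh38.p14, plus strand, 5′ to 3′) is shown with each CCAAT motif or its reverse complement in capitals:
GART and SON: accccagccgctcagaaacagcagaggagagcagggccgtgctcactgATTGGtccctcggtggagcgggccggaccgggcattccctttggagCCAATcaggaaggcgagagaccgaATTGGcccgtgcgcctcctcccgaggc
The 145 bases hold 3 such motifs, and neither CACGTG nor GCATGC. The stretch begins at 33542893, which is also the outermost base of the GART span given above.
GART was at 26.6, 27.0 and 27.2 FPKM in BRQ libraries, against 39.9, 44.0 and 42.4 FPKM in DMSO libraries. No library of one group reached the other group, and GART fell (log2 fold change -0.63, SE 0.04, limma adjusted p = 2.35e-07). SON, named for its position whatever its values, fell as well, with 24.3, 24.7 and 24.9 FPKM in BRQ against 32.9, 34.0 and 33.7 FPKM in DMSO (log2 fold change -0.44, SE 0.04, limma adjusted p = 1.11e-06). In GENCODE release 29 GART and SON overlap by 874 bases on opposite strands, and the strand setting of the counting is not known here.

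PFAS, which adds a nitrogen from glutamine in the fourth ring-building reaction, fell most among the members. The gene lies on chromosome 17 (8247608 to 8270486, plus strand). Its level was 5.88, 5.997 and 5.63 FPKM in BRQ, against 15.6, 16.4 and 16.1 FPKM in DMSO. The lowest DMSO library was thus far above the highest BRQ library, and the mean was 2.75-fold lower in BRQ (log2 fold change -1.38, SE 0.05, limma adjusted p = 3.76e-09). That change lay at percentile 1.99 of all tested genes, and it ran from -1.50 to -1.32 over the alternatives. PFAS overlaps 478 bases of CTC1, a gene of telomere replication on the opposite strand, chosen after its values were seen, which fell with a log2 fold change of -0.99 (limma adjusted p = 4.24e-07). CTC1 averaged 3.39 ± 0.262 FPKM in BRQ and 7.21 ± 0.255 FPKM in DMSO (SD, n = 3 each), and its part in the PFAS value was not tested.

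ADSL and ATIC, which carry out the last reactions up to IMP, fell less than PFAS and GART. ADSL cleaves fumarate from an intermediate both in the ring-building route and in the AMP branch, and lies on chromosome 22 (40346500 to 40387527, plus strand). It had 9.83, 9.46 and 9.71 FPKM in BRQ libraries, against 13.0, 13.7 and 13.4 FPKM in DMSO libraries. The groups stood apart (log2 fold change -0.45, SE 0.05, limma adjusted p = 7.76e-06). In GENCODE release 29 ADSL overlaps a read-through gene model by 43935 bases and SGSM3 by 19873 bases, both on its own strand. The first overlap is longer than the RefSeq span given above (41.0 kb), so the ADSL models of these sources differ. The ADSL level is uncertain where reads fall in shared sequence. SGSM3, named for its overlap after its values were seen, had 4.84, 5.32 and 4.54 FPKM in BRQ and 6.10, 5.32 and 5.16 FPKM in DMSO. Its groups overlapped and it was not called (log2 fold change -0.16, limma adjusted p = 0.0984), but under TMM factors it was, as lower (-0.27, limma adjusted p = 0.0113).

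ATIC adds the last carbon from a formyl folate and closes the ring to IMP. Its gene is on chromosome 2 (215312059 to 215368592, plus strand), and its values were 54.6, 53.5 and 55.8 FPKM in BRQ, against 68.0, 66.4 and 68.2 FPKM in DMSO. All BRQ libraries were below all DMSO libraries (log2 fold change -0.30, SE 0.03, limma adjusted p = 7.21e-06). RefSeq windows from 250 bases before to 50 after a start were at hand for 8 members. Those of PFAS (from 8249039) and GMPS (from 155870400) lie inside the spans given for these genes, whose outer ends were not searched. In the windows of the 8 members, ATIC alone had a CACGTG motif, the E-box bound by MYC and MAX, less than 50 bases before a start. Its window holds another CACGTG, which begins at base 30 of the transcript. A RefSeq start of LOC124907975, a gene on the minus strand absent from the deposited table, lies 87 bases from the ATIC start. These genes are transcribed away from each other, and the stretch below lies between their starts. The 80 bases before the ATIC start (chr2:215311979-215312058, RefSeq, GRCh38.p14, plus strand, 5′ to 3′) are shown for the upstream CACGTG, which is in capitals and begins 46 bases before the start:
ATIC: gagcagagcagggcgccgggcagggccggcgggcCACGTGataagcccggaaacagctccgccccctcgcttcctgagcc

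In the GMP branch IMPDH2 and GMPS fell and IMPDH1 did not pass the test. IMPDH2, the inosine monophosphate dehydrogenase usually prominent in proliferating cells, is on chromosome 3 (49024325 to 49029398, minus strand). It had the highest level of all members, with 75.5, 79.0 and 76.5 FPKM in BRQ libraries against 84.8, 86.5 and 90.4 FPKM in DMSO libraries. The groups did not overlap, but the difference was the smallest of those called (log2 fold change -0.18, SE 0.03, limma adjusted p = 0.000702). IMPDH1, its paralogue on chromosome 7 (128392277 to 128409982, minus strand), had 20.7, 19.4 and 18.8 FPKM in BRQ, against 21.1, 18.8 and 21.2 FPKM in DMSO. The values of IMPDH1 overlapped (log2 fold change -0.05, 95% interval -0.18 to 0.08, limma adjusted p = 0.427). Only TMM factors, among the alternatives, called IMPDH1, as lower (log2 fold change -0.17, limma adjusted p = 0.0227; 0.0227 to 0.786 over all alternatives). IMPDH1 has 7 named pseudogenes in GENCODE release 29.

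IMPDH2 stood at 3.64, 4.06 and 4.07 times the IMPDH1 level in BRQ libraries and at 4.01, 4.60 and 4.26 times in DMSO libraries, so the ranges of this ratio overlapped. Its log2 value differed by -0.13 between BRQ and DMSO (exact two-sided permutation p = 0.30). The smallest p that 3 against 3 libraries allow is 0.10, so this test cannot decide whether the RNA ratio of the paralogues differs. GMPS, which aminates xanthosine monophosphate to GMP with glutamine, lies on chromosome 3 (155869430 to 155944020, plus strand). It had 11.1, 10.6 and 11.2 FPKM in BRQ, against 13.9, 14.7 and 14.6 FPKM in DMSO. Each BRQ library was below each DMSO library (log2 fold change -0.38, SE 0.05, limma adjusted p = 3.21e-05). GMPS has 1 named pseudogene in the same release.

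**Figure D3:**
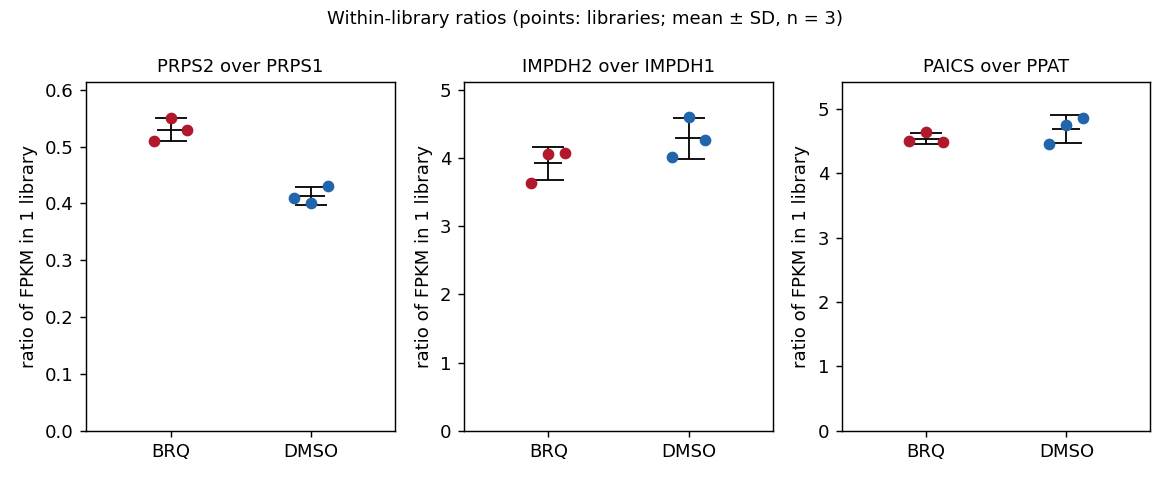
Ratio of FPKM within each library (y axis, from 0) for PRPS2 over PRPS1, IMPDH2 over IMPDH1 and PAICS over PPAT; points are libraries and bars the mean ± SD (n = 3). Only the PRPS2 over PRPS1 ratio separates the groups, with 0.51 to 0.55 in BRQ and 0.40 to 0.43 in DMSO.

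The members' levels spanned 13.2-fold in BRQ and 8.75-fold in DMSO. In both groups IMPDH2, ATIC, PAICS and GART were the 4 most abundant, in that order, and in BRQ GART (26.9 ± 0.331 FPKM) overlapped with PRPS2 (26.0 ± 1.03 FPKM, SD, n = 3 each). PRPS2 was the fifth in BRQ and the ninth in DMSO, whereas PFAS was the last in BRQ and the sixth in DMSO. GMPS (11.0 ± 0.317 FPKM) and PPAT (10.9 ± 0.429 FPKM) also overlapped in BRQ, and every other pair of neighbours in either order stood apart. Members varied little between libraries of a group, with coefficients of variation of 1.23% to 5.06% in BRQ and 1.50% to 6.73% in DMSO.

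Summed over the 10 members, the level was 288, 292 and 293 FPKM in BRQ libraries and 325, 328 and 336 FPKM in DMSO libraries. The sums did not overlap, and the BRQ mean was 11.7% lower, a difference of -38.7 FPKM (exact two-sided permutation p = 0.10, the smallest possible). With TMM factors the difference was -65.0 FPKM, and the sums stood apart likewise. The 7 members up to IMP summed to 183 ± 3.04 FPKM in BRQ and 208 ± 2.31 FPKM in DMSO, and the 3 of the GMP branch summed to 108 ± 1.31 FPKM in BRQ and 122 ± 3.64 FPKM in DMSO (SD, n = 3 libraries each). IMPDH2 alone held 26.5% of the members' sum in BRQ and 26.5% in DMSO. The share of PRPS2 was 8.94% in BRQ and 3.62% in DMSO, and that of PFAS 2.01% in BRQ and 4.86% in DMSO.

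The genes around the route moved in both directions. Of 43 genes listed for precursor supply, the AMP branch, folate and salvage, 41 were in the table and 37 were tested. Of those tested, 17 rose, 16 fell and 4 were not called (median log2 fold change 0.12, against 0.07 over all tested genes). Over all tested genes 44.3% were called higher and 35.4% lower, so the wider lists together are near the background. Of the 9 tested PRPP and pentose phosphate genes 5 rose and 4 fell, with a median of 0.25. Besides PRPS1, the 6-phosphogluconate dehydrogenase PGD rose most (285 ± 6.58 FPKM in BRQ and 218 ± 7.33 FPKM in DMSO, log2 fold change 0.39). The epimerase RPE fell most (-0.41). The PRPP synthetase-associated proteins went opposite ways, with PRPSAP2 at a log2 fold change of 0.33 and PRPSAP1 at -0.23 (limma adjusted p = 5.26e-05 and 0.00298).

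**Figure D4:**
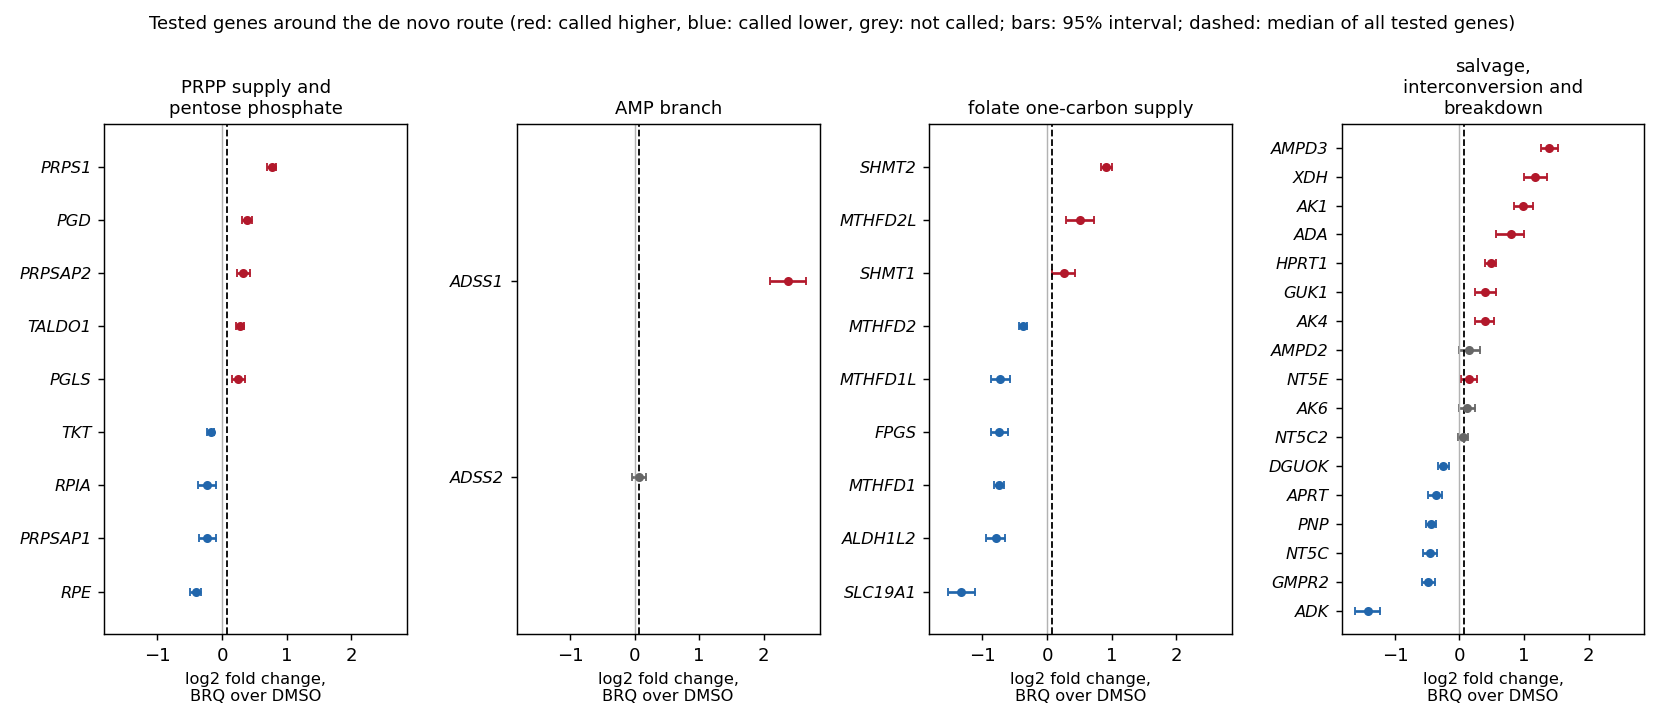
Log2 fold change of FPKM + 0.5, BRQ over DMSO (x axis), with 95% intervals for the 37 tested genes around the de novo route, in 4 lists. ADSS1 (2.37) lies farthest to the right and ADK (-1.42) farthest to the left, and each list except the AMP branch holds genes called in both directions.

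In the AMP branch the adenylosuccinate synthetase ADSS1, better known as the muscle form, had 6.40, 5.61 and 5.44 FPKM in BRQ, against 0.955, 0.522 and 0.713 FPKM in DMSO. All its BRQ libraries were several times above the DMSO ones, and it rose (log2 fold change 2.37, SE 0.13, limma adjusted p = 4.71e-08), on 35 to 476 reads per library. ADSS2, the widely expressed form, had 16.7 ± 0.206 FPKM in BRQ and 15.9 ± 0.740 FPKM in DMSO (SD, n = 3 each) and was not called (log2 fold change 0.07, limma adjusted p = 0.207). ADSS2 thus remained the more abundant form in both groups.

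Of the 9 tested folate genes 3 rose and 6 fell (median log2 fold change -0.72), against 44.3% and 35.4% of all tested genes. These genes take up and interconvert folates, among them the formyl folate that GART and ATIC consume. MTHFD1, the cytosolic enzyme that makes it, fell (40.5 ± 1.59 FPKM in BRQ and 68.1 ± 0.199 FPKM in DMSO, log2 fold change -0.74), as did the mitochondrial enzymes MTHFD1L (-0.72), ALDH1L2 (-0.79) and MTHFD2 (-0.37). The folate carrier SLC19A1 fell most (0.532 ± 0.0599 FPKM in BRQ and 2.08 ± 0.0214 FPKM in DMSO, log2 fold change -1.33). The serine hydroxymethyltransferase SHMT2 rose instead (62.0 ± 3.16 FPKM in BRQ and 32.4 ± 0.365 FPKM in DMSO, log2 fold change 0.92). MTHFD2L (0.51) and SHMT1 (0.26) made up the rest of the rises, and the SHMT1 call ended under TMM factors (limma adjusted p = 0.121).

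Salvage, interconversion and breakdown genes rose in 8 and fell in 6 of 17 tested cases, against 44.3% and 35.4% of all tested genes. Their median log2 fold change was 0.15. HPRT1, which salvages hypoxanthine and guanine with PRPP, rose (54.1 ± 1.11 FPKM in BRQ and 38.8 ± 1.63 FPKM in DMSO, log2 fold change 0.48), while APRT, which salvages adenine, fell (-0.37). The adenosine kinase ADK fell most, with 3.03, 2.62 and 2.47 FPKM in BRQ against 7.86, 7.62 and 8.84 FPKM in DMSO (log2 fold change -1.42, limma adjusted p = 1.11e-07). The AMP deaminase AMPD3 rose most, with 18.1, 20.5 and 19.5 FPKM in BRQ against 7.14, 6.70 and 7.37 FPKM in DMSO (1.39, limma adjusted p = 1.01e-08). For both genes the groups stood wide apart. The xanthine dehydrogenase XDH (1.17), the adenylate kinase AK1 (0.99) and the adenosine deaminase ADA (0.79) also rose, whereas the purine nucleoside phosphorylase PNP fell (189 ± 10.3 FPKM in BRQ and 256 ± 0.311 FPKM in DMSO, log2 fold change -0.44). The call of NT5E (0.15) as higher ended under several alternatives.

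Of the 5 transcription factors listed for the route, MAX rose, MYC, MNT and ATF4 fell, and NRF1 was not called. Among all tested genes 79.7% were called. MYC, a known activator of purine synthesis genes, had 47.6, 48.6 and 46.0 FPKM in BRQ, against 95.6, 93.0 and 95.8 FPKM in DMSO (log2 fold change -0.99, limma adjusted p = 1.90e-09). Its partner MAX averaged 27.9 ± 0.199 FPKM in BRQ and 19.6 ± 0.866 FPKM in DMSO (SD, n = 3 each), a log2 fold change of 0.50. MNT, a repressor that also pairs with MAX, changed by -0.77, and ATF4, the regulator of amino acid stress genes, by -0.14 on the log2 scale. CACGTG was found in 3 of the 12 start windows of 8 members, and in 7.26% of all 35116 windows of 300 bases. The 3 were 1 window each of ATIC, PPAT and PAICS, and that of ATIC held 2 such motifs. In PAICS it begins at base 41 of the transcript from the start that faces PPAT, which is the same site that lies 182 bases upstream of the PPAT start. The motifs CCAAT (34.6% of all windows) and GCATGC (7.22%) were each found only in windows of GART among those of these members. A match is a description of the letters, and binding was not measured.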

How the data were processed

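Illumina libraries were made from 1.3 ug of TRIzol-extracted RNA per sample, per the labels. HTSeq, fastp and the build hg38 are listed in the submitters' processing notes, without their settings. No source used here names the aligner, the annotation or the strandedness of the counting. The authors deposited FPKM values for 17335 genes in 6 columns, all of which matched a sample by name.

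FPKM values were tested as log2(FPKM + 0.5) in limma 3.58.1 (R 4.3.3, eBayes with trend, group as the only term) over the 12258 genes that reached 0.5 FPKM in 3 or more libraries, with two-sided p-values adjusted by Benjamini-Hochberg. Fold changes of weakly expressed genes are shrunk by the pseudocount. Members and lists were chosen with earlier results of these data known, and 3 genes of the lists are not reported here and are left out of the counts. The named genes were the members, the listed genes around the route, and genes starting head to head within 1 kb of a member; CTC1 and SGSM3 were added for their overlap with a member after their values were seen. Reads and library totals were worked back from the steps between FPKM values, which came out whole within 0.01 reads for 100.0% of genes. The limma fit and the recovery of reads were tested on simulated data. Between replicates the chi-square per gene was 3.92 to 6.11, above counting noise. Ratios and sums within libraries were compared by exact permutation over samples. Coordinates and sequences come from RefSeq (GRCh38.p14), strands, overlaps and pseudogenes from GENCODE release 29. The alternatives were pseudocounts of 0.1 and 1, a filter on a mean FPKM of 1 or none, quantile normalization, TMM factors, array weights, a fit without trend, a block for the replicate number, limma-voom on the recovered reads, and leaving out each library. Figures used Python 3.11.15 with matplotlib 3.10.9.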

Additional observations from a re-analysis of the deposited data

How the results depend on the processing

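The 6 members called lower and PRPS2 kept their call and direction under all 16 alternatives each. The count of members called lower was 6 to 7 over them, and 6 without any 1 library. The count called higher was 1, and 2 with limma-voom on the recovered reads, where PAICS was added (0.08). Without 1 library at a time it was 1 to 2, with PAICS added without BRQ replicate 1 (0.10) and PPAT added without DMSO replicate 1 (0.15); the cause was not tested. TMM factors lowered the median log2 fold change of all genes by 0.11. Under them genes not called turned direction: PAICS was at -0.04, ADSS2 at -0.05, NT5C2 at -0.06 and AK6 at -0.0007, and under quantile normalization PAICS was at -0.01 and NT5C2 at -0.02. Over all genes, 4518 to 6571 were called higher and 4061 to 5184 lower across the alternatives, and lower calls outnumbered higher ones under TMM factors (5184 against 4518) and quantile normalization (4959 against 4713). The samples of BRQ and DMSO share only a replicate number: deviations of same-numbered libraries correlated at -0.04 to -0.01, and with the replicate block 5351 genes were called higher and 4278 lower, 1 member higher and 6 lower. The differences of the log2 ratios of PRPS2 over PRPS1, IMPDH2 over IMPDH1 and PAICS over PPAT between BRQ and DMSO had the same sign throughout, and with the replicate block they were 0.33, -0.13 and -0.04. The median SE of a log2 fold change over all tested genes was 0.07, which limits what 3 libraries a group can resolve.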
